A study of Homo sapiens with 6 samples.

Results

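Kinesins are motor proteins that hydrolyse ATP to walk along microtubules or, in depolymerases such as KIF2C, to shorten them. Counted with them here are the light chains and the adaptor subunit that some of them carry. They were followed here in H1975, a human line of non-small cell lung cancer that carries mutant EGFR, before and after Osi (osimertinib), an EGFR tyrosine kinase inhibitor. Members were taken by gene symbol (KIF and a number, KIFC1 to KIFC3, KIFAP3 and KLC1 to KLC4), which matched 47 of the 27216 rows of the expression table. Of these, 12 were set as mitotic kinesins (KIF2C, KIF4A, KIF11, KIF14, KIF15, KIF18A, KIF18B, KIF20A, KIF20B, KIF22, KIF23 and KIFC1) and the other 35 served for comparison. No measured value entered this choice, although earlier results of the same data were known when it was made.

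The groups were 3 parental samples (Osi for 0 h) and 3 adapted samples (Osi at 1000 nM for 72 h). Both groups carry the genotype label WT and were grown in serum, and apoptotic cells were removed by washing, so that adapted samples hold the cells that were left. All samples come from 1 cell line. The labels do not say whether the replicates were separate cultures. The study speaks in general of independent experiments, with replicates called technical in its methods and most figure legends. For the RNA sequencing its legend gives only 3 samples, without saying whether these were separate cultures. The p-values therefore measure only the spread between these samples, which may be technical. The labels describe the parental cells as taken before treatment, at 0 h, while the columns of the table carry the names DMSO and OSI with a replicate number. The DMSO columns were matched to the 0 h samples by inference, since the sample labels name no other group without Osi exposure. The description of the series speaks of DMSO or Osi and of 0 or 72 h without pairing them, so these cells may have spent 72 h in DMSO. If they were taken at 0 h, Osi and time in culture cannot be told apart. The labels also describe digestion with RNase R, which degrades linear RNA, ahead of library preparation for circular RNA, whereas the methods of the study name total RNA only. Levels are log2(FPKM + 1). FPKM divides the fragments of a gene by its length and by all fragments mapped in that sample. This unit was inferred from the values. The FPKM values summed to between 375342 and 387753 per sample. Read depth is unknown, so errors are those between replicates alone. Exact permutation of 3 against 3 samples gives a p of 0.1 at the smallest, so the tests used limma, a linear model fitted across all rows, and p-values were adjusted over all of them. A single library stood apart from its group. Adapted replicate 1 correlated with the other 2 adapted samples at r = 0.991 across all rows, where those 2 correlated with each other at 0.996 and the parental samples at 0.997. These coefficients run across genes and are a description only.

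The labelled cell type was checked first. EPCAM, KRT8, KRT18, KRT19, CDH1 and EGFR, which mark an EGFR-driven epithelial line, all had a mean of at least 7.45 in both groups, although the keratins KRT8, KRT18 and KRT19 fell by 0.28, 0.57 and 0.75 on the log2 scale. Of the markers of other cells, CD3E was listed at 0 in all 6 samples, PTPRC was at most 0.077, SNAP25 at most 0.052 and RBFOX3 at most 0.115. CD68, COL1A1 and SYT1 were the most abundant of the leukocyte, fibroblast and neuron markers. CD68, which encodes a lysosomal membrane protein, was at 6.27, 6.22 and 6.25 in parental and at 4.93, 3.96 and 4.31 in adapted samples. The summed FPKM of the 3 leukocyte markers, nearly all of it CD68, was 76.3, 73.7 and 75.1 in the parental and 29.6, 14.6 and 18.8 in the adapted samples. COL1A1, a fibrillar collagen chain, rose by 1.12 on the log2 scale, and the 5 fibroblast markers summed to 3.04 to 3.16 FPKM in parental and 8.60 to 9.33 in adapted samples. The other fibroblast markers were too low to be tested. COL3A1 was at most 0.022 in parental samples and at 1.37, 0.17 and 0.11 in adapted samples, and LUM was at 0.06, 0.04 and 0.06 and then at 0.73, 0.53 and 0.57, so that neither overlapped between groups. PDGFRB was at most 0.057 and DCN at most 0.108 in any sample. The 3 endothelial markers summed to 1.13 to 1.86 FPKM in parental and 1.42 to 3.47 in adapted samples, and none was high enough to be tested. Within that sum PECAM1 was at 1.28, 1.40 and 0.996 in parental and 0.07, 0.09 and 0.11 in adapted samples on the log2 scale. CDH5 was at 0.19, 0.27 and 0.16 and then at 1.19, 2.08 and 1.87, and VWF was at most 0.035 and then between 0.12 and 0.34. These genes thus differed in opposite directions. The 3 neuron markers summed to 10.5 to 11.2 FPKM in parental and 9.66 to 12.96 in adapted samples. The part of these genes in the results below was not tested.

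As background, dividing cells need kinesins that differ from those of resting cells. Mitotic kinesins separate the spindle poles, move and align chromosomes, trim microtubule ends and build the midzone at which the daughter cells part, and their mRNAs are known to be made late in the cell cycle. Transport kinesins carry vesicles, organelles and RNA towards the cell periphery throughout the cycle. The promoters of many late cell-cycle genes are known for an element named CHR, often written TTTGAA, close to the start site and for CCAAT boxes bound by NF-Y a short way upstream.

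These 2 motifs were searched on both strands in the promoter windows of RefSeq (GRCh38.p14), which run from 250 bases before to 50 after each start. All 12 mitotic kinesins and 25 of the other 35 genes matched an entry by symbol. TTTGAA was found for 9 of the 12 mitotic kinesins (75.0%), CCAAT for 10 (83.3%) and both for 8 (66.7%). Among the other kinesins, 2 of 25 genes held TTTGAA, 8 held CCAAT and 2, KIF5B and KIF4B, held both. Of the 9334 tested genes with an entry, 13.5% held TTTGAA, 43.3% held CCAAT and 5.54% held both, and of the 2486 of them that fell in adapted cells, 16.0%, 45.5% and 8.005% did. Of all 35116 windows, 15.2% held TTTGAA, 34.6% held CCAAT and 5.90% held both. The 4 mitotic kinesins with both motifs with the largest log2 fold changes are printed to show where the motifs lie, from 80 bases before to 10 after the start, on the strand of the gene, with every match to either motif on either strand in capitals.
KIF4A, chrX:70290024-70290113, plus strand: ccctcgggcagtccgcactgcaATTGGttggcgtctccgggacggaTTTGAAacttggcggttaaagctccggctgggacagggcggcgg
KIF18B, chr17:44947764-44947853, minus strand: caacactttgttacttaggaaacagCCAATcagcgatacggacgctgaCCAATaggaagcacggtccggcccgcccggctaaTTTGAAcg
KIF14, chr1:200620742-200620831, minus strand: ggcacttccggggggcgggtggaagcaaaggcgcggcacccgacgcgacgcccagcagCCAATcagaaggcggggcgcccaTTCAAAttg
KIF11, chr10:92593050-92593139, plus strand: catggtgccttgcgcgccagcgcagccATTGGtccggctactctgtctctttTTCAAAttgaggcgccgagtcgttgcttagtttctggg
In these 4 stretches the motifs did not overlap, and the nearest pair was 18 to 29 bases apart, with the CCAAT box always on the upstream side. Over all 8 genes with both, the nearest pair was 4 (KIF23) to 117 (KIF20B) bases apart. KIF2C held neither sequence in its window, KIF15 held TTTGAA alone, and KIF20A and KIF22 held CCAAT alone. A match is a description of the letters present, not evidence that a factor was bound.

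All 12 mitotic kinesins fell in adapted cells (limma, adjusted p of at most 0.00112 over the 12656 rows tested). The median log2 fold change was -1.64, from -2.09 for KIF2C to -1.01 for KIF22, against 0.03 over all rows tested. On the linear scale, between 17.8% (KIF14) and 48.7% (KIF22) of the parental FPKM was left. Of all rows, 56.9% passed the threshold, 26.2% fell and 5.18% fell with a log2 fold change of at most -1, which all 12 met. KIF22 met this limit narrowly, and was at -0.95 without adapted replicate 2 and at -0.94 without adapted replicate 3. In each of the 12 the groups did not overlap, which was the case, with all adapted samples lower, for 30.6% of all rows. In bulk RNA, fewer dividing cells and less kinesin mRNA per cell cannot be told apart. Only 248 rows (1.96%) had a change at or below the median of the 12, and by the definition of a median these include 6 of the mitotic kinesins. The mitotic kinesins lie on chromosomes 1 (KIF2C and KIF14), 3 (KIF15), 5 (KIF20A), 6 (KIFC1), 10 (KIF11 and KIF20B), 11 (KIF18A), 15 (KIF23), 16 (KIF22), 17 (KIF18B) and X (KIF4A).

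**Figure D1:**
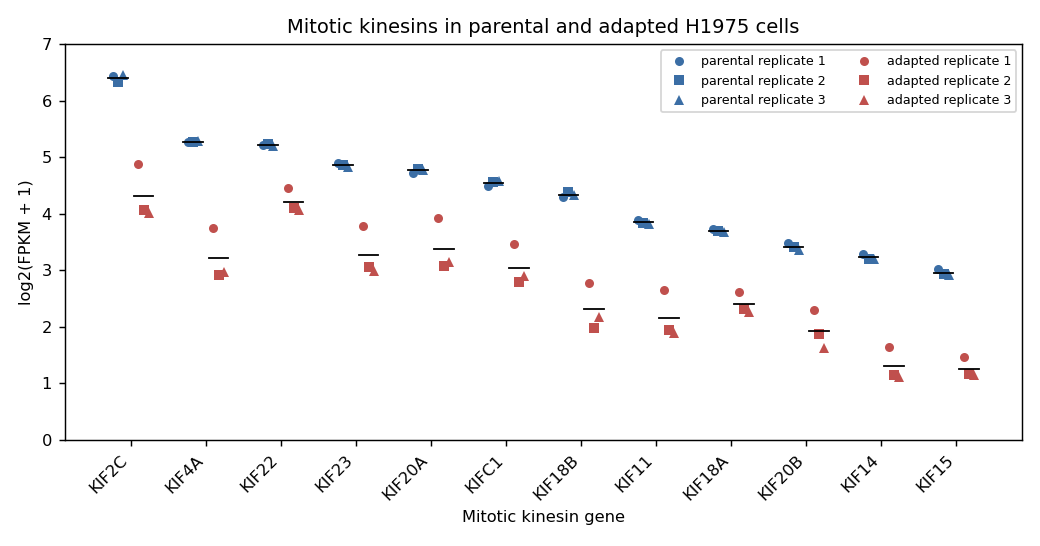
log2(FPKM + 1) of each mitotic kinesin (y axis) in the 3 parental (blue) and 3 adapted (red) samples, 1 symbol per replicate, with the group mean as a black line. Genes are ordered by parental level, all adapted samples lie below all parental samples for every gene, and adapted replicate 1 (red circle) is the highest adapted sample for all 12.

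Adapted replicate 1 was the highest adapted sample for 12 of 12 mitotic kinesins, against 39.6% of all rows tested and 56.0% of the rows that fell. Without it, all 12 still fell and their median was -1.82.

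The motors that build the bipolar spindle are given first. KIF11 (Eg5), which pushes the poles apart, was at 3.89, 3.83 and 3.81 in the parental samples and at 2.64, 1.94 and 1.88 in the adapted samples, a log2 fold change of -1.69 (standard error 0.19, adjusted p = 3.02e-04). KIF15, which can keep the poles apart beside KIF11, was at 3.02, 2.94 and 2.92 and then at 1.46, 1.16 and 1.15, a change of -1.70 (standard error 0.10). KIFC1, a motor directed to the minus end that focuses the poles and clusters extra centrosomes, was at 4.49, 4.56 and 4.57 and then at 3.45, 2.79 and 2.89 (-1.50, standard error 0.16). The spread among parental samples was at most 0.06 (SD) for any of the 12, whereas among adapted samples it was 0.18 to 0.49. All 3 genes thus lay well outside the parental spread in each adapted sample.

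The motors that act on chromosomes and on microtubule ends spanned the whole range of changes on the log2(FPKM + 1) scale. KIF2C (MCAK), a depolymerase at centromeres and the kinesin with the highest FPKM in parental cells, was at 6.43, 6.33 and 6.45 in parental and 4.88, 4.06 and 4.005 in adapted samples (log2 fold change -2.09, standard error 0.22, adjusted p = 2.06e-04). KIF4A, a chromokinesin that also limits the length of midzone microtubules, was at 5.26, 5.27 and 5.29 and then at 3.74, 2.92 and 2.97 (-2.06, standard error 0.20). KIF18B, which shortens astral microtubules, was at 4.30, 4.37 and 4.33 and then at 2.77, 1.98 and 2.18 (-2.03, standard error 0.19). These were the 3 largest changes on the log2(FPKM + 1) scale. With a pseudocount of 0.1 the order was KIF14 (-2.46), KIF18B (-2.26), KIF15 (-2.21), KIF4A (-2.18) and KIF2C (-2.14). KIF18A, which dampens chromosome movements at the metaphase plate, was at 3.73, 3.69 and 3.68 and then at 2.62, 2.31 and 2.26 (-1.30, standard error 0.10). KIF22 (Kid), the chromokinesin that pushes chromosome arms away from the poles, was at 5.21, 5.23 and 5.20 and then at 4.45, 4.09 and 4.07 (-1.01, standard error 0.10, adjusted p = 1.92e-04). KIF22 kept the largest share of its parental level. KIF2C was above KIF22 in all 3 parental samples (79.6 to 86.2 against 35.7 to 36.5 FPKM), whereas in adapted samples KIF2C was higher only in replicate 1 (28.4 against 20.8) and lower in replicates 2 (15.7 against 16.1) and 3 (15.1 against 15.8).

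The motors of the midzone and cytokinesis fell as well. KIF14, which brings citron kinase (CIT) to the midbody, was at 3.29, 3.20 and 3.19 in parental and 1.63, 1.14 and 1.12 in adapted samples (log2 fold change -1.93, standard error 0.14, adjusted p = 5.04e-05). KIF23 (MKLP1), which forms centralspindlin with RACGAP1, was at 4.90, 4.85 and 4.82 and then at 3.78, 3.05 and 2.98 (-1.59, standard error 0.20). On the linear scale KIF14 was left with the smallest share of its parental FPKM among the 12. KIF20A (MKLP2), which moves the chromosomal passenger complex to the midzone, was at 4.72, 4.79 and 4.77 and then at 3.92, 3.07 and 3.15 (-1.39, standard error 0.21). KIF20B, its relative in cytokinesis, was at 3.48, 3.40 and 3.35 and then at 2.30, 1.87 and 1.62 (-1.48, standard error 0.16). KIF20A had the largest adjusted p of the 12 (limma, 0.00112). Its SD among adapted samples, 0.467, was below the 0.490 of KIF2C, which had a larger change. Adapted replicate 1 was the highest adapted sample for KIF20A, as for all 12. Ordered by log2 fold change, neighbours among the 12 lay within the larger of their standard errors of each other apart from KIF14 against KIF15 and KIF18A against KIF22.

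Some of these genes share exon sequence with genes on the opposite strand, and whether counting used strand is not given. In GENCODE v29, KIF4A overlaps PDZD11, KIF20A overlaps BRD8 and CDC23, and KIF18A overlaps METTL15. The log2 fold changes of these neighbours were 0.01 (PDZD11), -0.26 (BRD8), 0.10 (CDC23) and -0.33 (METTL15), smaller than those of the kinesins. KIF2C (AL592166.1), KIF23 (AC027237.3), KIFC1 (RPL12P1) and KIF22 (AC009133.4) also overlap a gene on the opposite strand. Those neighbours have no row in the data and could not be compared. KIF4B, an intronless near copy of KIF4A counted among the other kinesins, was listed at 0.17, 0.20 and 0.20 in parental and 0.05, 0.04 and 0.08 in adapted samples, too low to be tested, and its reads may belong to KIF4A.

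Of the 35 other kinesin genes, 24 passed the filter on low values (a mean log2(FPKM + 1) of at least 1). Among these 24, 5 fell (20.8%, against 26.2% of all rows), 8 rose (33.3%, against 30.7% of all rows) and 11 were not past the threshold, with a median log2 fold change of 0.09. On the log2(FPKM + 1) scale with all 6 samples, KIF21B (-1.16) was the 1 gene of the 24 to change by more than 1, and 0 rose by that much, against 5.31% of all rows. This count depends on the scale and on single libraries. Without adapted replicate 1, KIF24 (-1.11), KIF12 (-1.06) and KLC3 (1.04) passed 1 as well, as did KLC3 without parental replicate 1 (1.01). With a pseudocount of 0.1, KIF24 was at -1.44, KLC3 at 1.23 and KIF12 at -1.46, the last not past the threshold (limma, adjusted p = 0.14). Groups did not overlap in 6 with the adapted samples lower and in 10 with them higher (30.6% and 35.7% of all rows). Adapted replicate 1 was the highest adapted sample for 8 of the 24 (33.3%). Without it 6 fell and 10 rose, in a fit that also called more rows overall (3896 lower and 4474 higher of 12656, against 3313 and 3889 with it), and the median was 0.04.

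**Figure D2:**
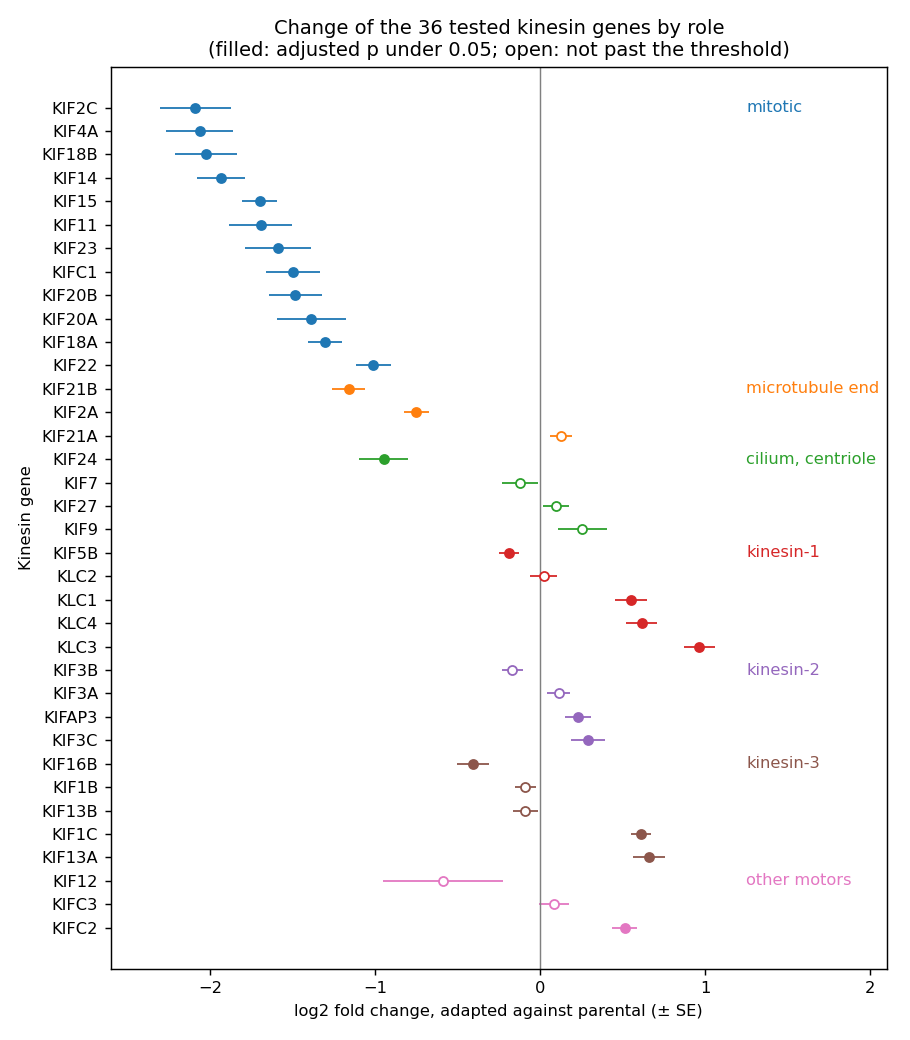
log2 fold change of adapted against parental cells (x axis, bars are the standard error from limma) for the 36 kinesin genes tested, grouped by role. All 12 mitotic kinesins lie at -1.01 or below, while the other 24 lie on both sides of 0, from -1.16 (KIF21B) to 0.97 (KLC3).

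Kinesin-1, the main motor for outward transport, is built of heavy chains (KIF5A to KIF5C) and light chains that bind cargo (KLC1 to KLC4). KIF5B, the heavy chain found in most cells, was at 5.57, 5.53 and 5.44 in parental and 5.32, 5.35 and 5.30 in adapted samples (log2 fold change -0.19, standard error 0.06, limma, adjusted p = 0.0292). This call was lost without parental replicate 1 (adjusted p = 0.121), parental replicate 2 (0.105) or adapted replicate 3 (0.0599), and with the replicate number as a block (0.0612). The neuronal heavy chains KIF5A and KIF5C were at most 0.059 in any sample. Of the light chains, KLC3 rose most, from 1.74, 1.56 and 1.63 to 2.46, 2.70 and 2.66 (0.97, standard error 0.09, adjusted p = 1.56e-04), a 2.40-fold higher mean FPKM. KLC1 was at 4.74, 4.74 and 4.82 and then at 5.09, 5.44 and 5.42 (0.55, adjusted p = 0.00272). KLC4 was at 2.73, 2.89 and 2.81 and then at 3.32, 3.61 and 3.35 (0.61, limma, adjusted p = 0.00134). KLC2, at 3.57 ± 0.04 and 3.59 ± 0.13, was not past the threshold (adjusted p = 0.832, limma). In all, 3 of the 4 light chains rose, where 30.7% of all rows rose. KLC1 overlaps XRCC3 and BAG5, KLC4 overlaps CUL7 and MRPL2, and KLC3 overlaps ERCC2 on the opposite strand, with log2 fold changes of -0.35, 0.61, 0.74, -0.10 and 0.29 in that order. On the same strand KLC1 overlaps AL139300.1, which had a mean of 0.52 and was too low to be tested.

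Kinesin-2 moves cargo in cilia and in the cytoplasm as a pair of KIF3 motors with the adaptor KIFAP3. KIF3B had means of 4.74 (parental, SD 0.04, n = 3) and 4.57 (adapted, SD 0.08, n = 3, limma, adjusted p = 0.0556) and KIF3A at 1.95 ± 0.04 and 2.06 ± 0.02 (adjusted p = 0.206). The groups of KIF3B did not overlap, and it passed the threshold after centring on the median (-0.19, limma, adjusted p = 0.0341). KIFAP3 rose by 0.23 (adjusted p = 0.0386) and KIF3C, an alternative partner of KIF3A, by 0.29 (adjusted p = 0.045, limma). Both calls were close to the threshold. That of KIF3C was lost without any 1 of the parental replicates (adjusted p of 0.0921 to 0.126) or without adapted replicate 2 (0.0714), in the fit with a replicate block (0.0631), without a filter (0.0786), and after quantile normalization (0.0686) or centring on the median (0.0576). Without adapted replicate 1 the change of KIF3C was 0.18. The call of KIFAP3 was lost without parental replicate 1 (0.133) or 3 (0.121) or adapted replicate 2 (0.103) or 3 (0.0936), and without a filter (0.0557). KIF17, which acts in cilia and dendrites, was between 0.04 and 0.28.

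Kinesin-3 motors carry vesicles and endosomes. KIF1C, a carrier of dense-core vesicles and integrins, was at 5.15, 5.15 and 5.09 in parental and 5.82, 5.67 and 5.75 in adapted samples (log2 fold change 0.61, standard error 0.06, adjusted p = 1.72e-04). KIF13A, which acts in recycling endosomes, was at 2.75, 2.95 and 2.85 and then at 3.33, 3.59 and 3.61 (0.66, adjusted p = 0.00108). KIF16B, which binds early endosomes, moved the other way, from 3.03, 3.07 and 2.99 to 2.42, 2.72 and 2.71 (-0.41, adjusted p = 0.00947). In all 3 genes the groups were separate. KIF1B and KIF13B each had a log2 fold change of -0.09 and were not past the threshold (adjusted p = 0.264 and 0.346, limma), and the neuronal KIF1A was at most 0.079. Without adapted replicate 1 the change of KIF13B was -0.03.

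On the log2(FPKM + 1) scale with all 6 samples, the largest falls among the other 24 members tested were in motors that act on microtubule ends or centrioles. KIF12, of neither class, was below KIF2A without adapted replicate 1 (-1.06 against -0.69). With a pseudocount of 0.1, KIF12 (-1.46) was below KIF24 (-1.44), KIF21B (-1.41) and KIF2A (-0.77). KIF21B, which pauses and trims growing microtubule ends, was at 3.03, 2.98 and 2.94 in parental and 1.80, 1.67 and 2.01 in adapted samples (log2 fold change -1.16, standard error 0.10, adjusted p = 9.06e-05). Its close relative KIF21A was at 3.38 ± 0.05 and 3.51 ± 0.07 (adjusted p = 0.14, limma). KIF2A, a depolymerase that works at spindle poles and also outside mitosis, was at 5.16, 5.11 and 5.22 and then at 4.29, 4.53 and 4.42 (-0.75, adjusted p = 1.92e-04). KIF24, which restrains cilium growth at the centriole, was at 2.02, 1.96 and 1.92 and then at 1.35, 0.79 and 0.92 (-0.95, adjusted p = 0.00139). For KIF21B and KIF2A, unlike the 12, adapted replicate 1 was not the highest adapted sample, whereas for KIF24 it was. KIF2B, a testis depolymerase, was listed at 0 in all 6 samples. KIF7, a regulator of Hedgehog signaling at the tip of cilia, KIF27 and KIF9 were not past the threshold (log2 fold changes of -0.12, 0.10 and 0.25), and KIF9 passed it without adapted replicate 1 (0.42, adjusted p = 0.00297, limma). With 1 sample left out at a time, KIF7 ranged from -0.21 to -0.07 and KIF9 from 0.14 to 0.42. Of the genes that overlap these in GENCODE v29, IPO11 for KIF2A lies on the same strand (-0.15). On the opposite strand are UBAP1 for KIF24 (-0.31), TICRR for KIF7 (-1.47) and KLHL18 for KIF9 (0.54). KIF9-AS1 for KIF9 and AL354733.1 and AL354733.2 for KIF27, also on the opposite strand, have no row in the data.

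The remaining motors were varied. KIFC2, a minus-end motor, was at 2.41, 2.46 and 2.43 and then at 2.86, 2.91 and 3.07, and rose by 0.51 (limma, adjusted p = 0.00116). KIFC3, a minus-end motor of epithelial junctions, was between 5.52 and 5.524 in parental samples and at 5.79, 5.57 and 5.46 in adapted samples, and was not past the threshold (adjusted p = 0.443, limma). KIF12 was the member that adapted samples split on, at 1.24, 1.47 and 1.21 in parental samples and at 1.66 in adapted replicate 1 but 0.26 and 0.23 in replicates 2 and 3 (log2 fold change -0.59, adjusted p = 0.201). Without adapted replicate 1 its change was -1.06 (adjusted p = 1.31e-04), and KIF21A, with 0.17, passed the threshold as well (0.0364). Of the 11 members too low to be tested, all among the other kinesins, KIF25 had the highest mean (0.66). KIF25 was listed at 0.26, 0.42 and 0.20 in parental and 1.10, 1.12 and 0.89 in adapted samples, and KIF26B at 0.04, 0.02 and 0.06 and then at 0.47, 0.32 and 0.30. The remaining 9 had means between 0 and 0.14. Among them, KIF19 was listed at 0.02, 0 and 0 in parental and 0.12, 0.16 and 0.16 in adapted samples, KIF26A was at most 0.019 in parental and between 0.065 and 0.079 in adapted samples, and KIF6 was at most 0.016 in any sample.

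The balance within the family changed accordingly. The summed FPKM of the 12 mitotic kinesins was 305.1, 300.1 and 304.3 in the parental samples and 122.4, 73.7 and 73.3 in the adapted samples. For the other 35 genes it was 313.3, 313.8 and 309.0 and then 330.6, 337.7 and 332.4. The mitotic share of all kinesin FPKM had a mean of 49.3% in parental (SD 0.373, n = 3) and 21.0% in adapted cells (SD 5.21, n = 3), with 27.0% in adapted replicate 1 and 17.9% and 18.1% in replicates 2 and 3. Of the 10 kinesin genes with the highest mean FPKM, 5 were mitotic in parental cells and 2, KIF2C and KIF22, in adapted cells. Places 9 and 10 in adapted cells were KLC2 and KIF13A, but in adapted replicate 1 KIF20A (14.1) and KIF23 (12.8) exceeded both (12.2 and 9.07). In parental cells KIF20A, in place 10 with 26.2 ± 0.678 FPKM, was within the spread of KIF3B with 25.7 ± 0.647. KIF2C led in parental cells with 83.7 ± 3.55 FPKM, and in adapted cells KIF1C led with 52.7 ± 2.77, ahead of KIFC3 with 47.9 ± 5.84, a neighbour within its spread.

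**Figure D3:**
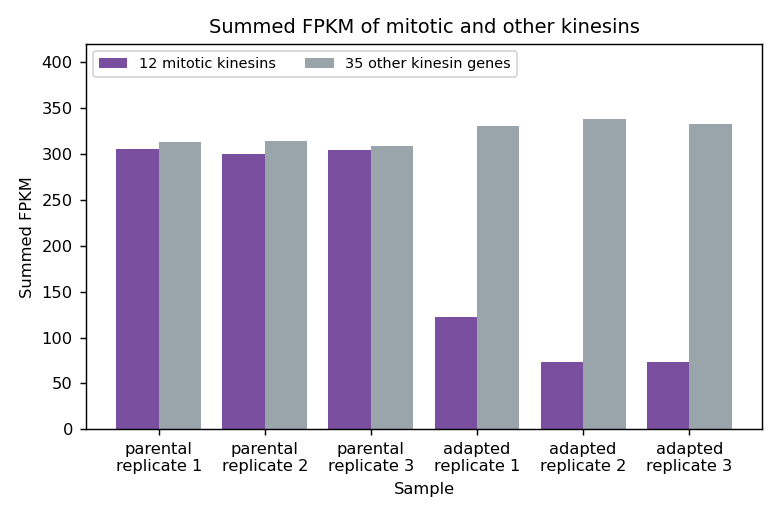
Summed FPKM (y axis, from 0) of the 12 mitotic kinesins (purple) and the 35 other kinesin genes (grey) in each of the 6 samples. The mitotic sum is 300.1 to 305.1 in parental and 73.3 to 122.4 in adapted samples. The sum of the others is 309.0 to 313.8 in parental and 330.6 to 337.7 in adapted samples.

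**Figure D4:**
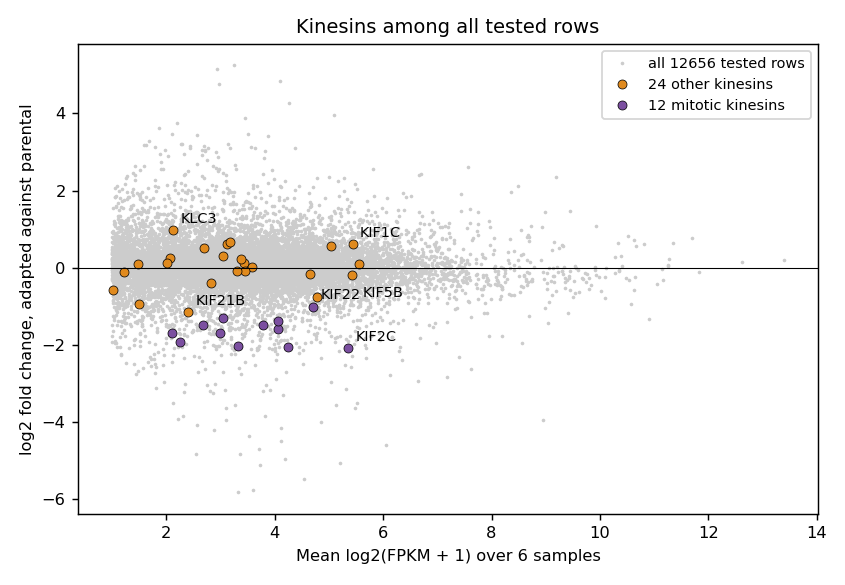
log2 fold change of adapted against parental cells (y axis) against the mean log2(FPKM + 1) over the 6 samples (x axis) for all 12656 rows tested (grey), the 12 mitotic kinesins (purple) and the 24 other kinesins tested (orange). The mitotic kinesins lie in the lower part of the cloud at low and high levels alike, from KIF22 at -1.01 to KIF2C at -2.09.

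Genes that work beside mitotic kinesins were taken from a list of 19 spindle partners, of which 16 fell and 2 rose (84.2% and 10.5%, against 26.2% and 30.7% of all rows), with a median log2 fold change of -1.59. CENPE, which is itself a kinesin of the kinetochore without a KIF symbol, was at 3.35, 3.24 and 3.29 in parental and 1.93, 1.55 and 1.56 in adapted samples (-1.62, standard error 0.11, limma, adjusted p = 3.94e-05). STARD9, another kinesin without a KIF symbol and outside the list, was too low to be tested and differed the other way, at 0.28, 0.26 and 0.27 in parental and 1.09, 1.49 and 1.39 in adapted samples. The largest falls in the list were in NUSAP1, a microtubule bundler (-2.69), HMMR, a spindle assembly factor (-2.10), and AURKA, a spindle pole kinase (-1.97). The direct partners CIT (KIF14), RACGAP1 (KIF23), TPX2 (KIF15) and PRC1 (KIF4A) fell too, by 1.09, 1.59, 1.78 and 1.96 on the log2 scale. Not every partner of these motors is named here. The list was not uniform. NUMA1, which anchors dynein at the poles and is a nuclear protein outside mitosis, rose by 0.38 (adjusted p = 0.00678, limma), and MAPRE1 (EB1), which tracks microtubule ends throughout the cycle, rose by 0.27 (adjusted p = 0.00948), while CLASP2 had a log2 fold change of -0.01. CLASP1 fell by 0.20 (adjusted p = 0.0433, limma).

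All 6 general markers of division were lower in each adapted sample than in any parental sample (30.6% of all rows) and fell past the threshold (26.2% of all rows). TOP2A, which untangles DNA, was at 7.53, 7.53 and 7.47 in parental and 5.34, 4.49 and 4.39 in adapted samples (log2 fold change -2.77). MKI67, the Ki-67 antigen, had a change of -1.89, and the cyclins CCNB1 and CCNA2 of -1.77 and -1.60. MCM2, part of the replicative helicase, was at 5.48, 5.58 and 5.50 and then at 5.11, 4.55 and 4.60 (-0.76), and PCNA, the sliding clamp, at 6.38, 6.38 and 6.33 and then at 6.28, 5.79 and 5.69 (-0.45). The replication proteins thus had the smallest changes of the 6. The summed FPKM of all 6 markers was 476.3, 476.7 and 465.1 in parental samples and 219.8, 137.9 and 130.7 in adapted samples, so that adapted replicate 1 was highest here too. How far the change of the mitotic kinesins follows the number of dividing cells was not tested.

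Lists were also taken of genes for transport. Of 22 adaptors and cargo linkers of transport kinesins, 21 passed the filter, 11 rose and 1 fell (52.4% and 4.76%, against 30.7% and 26.2% of all rows), with a median log2 fold change of 0.26. RHOT1 and RHOT2 (Miro), which tie mitochondria to kinesin-1, were the largest rises, by 1.21 and 0.91 on the log2 scale as deposited. In both, however, the 3 adapted values are off the 6-decimal grid of FPKM values in the rest of the table and return to it when 0.66 is subtracted, which left 0.55 (adjusted p = 8.17e-04) and 0.25 (adjusted p = 0.022, limma). The TRAK proteins that complete this linkage, on the grid, rose by 0.47 (TRAK1) and 0.59 (TRAK2). KIDINS220, a kinesin-1 cargo, rose by 0.63 and SPAG9 (JIP4), a lysosome adaptor shared with dynein, fell by 0.69 (adjusted p = 5.46e-05, limma). None of the 47 kinesin rows was off the grid.

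Of 31 genes of dynein, the motor that opposes kinesins, its activator dynactin and their adaptors, 29 passed the filter, 15 rose (51.7%, against 30.7% of all rows) and 7 fell, with a median log2 fold change of 0.22. The share that fell, 24.1%, was near the 26.2% of all rows. DYNC1H1, the heavy chain, rose by 0.68, DCTN2 (dynamitin) by 0.62 and ACTR1A, the actin-like core of dynactin, by 0.53 (limma, adjusted p of 5.47e-04, 1.37e-04 and 2.37e-04). The largest fall was in NDE1, a dynein regulator with a role in mitosis (4.67, 4.86 and 4.74 in parental, 3.82, 3.35 and 3.48 in adapted samples), which fell by 1.21 on the log2 scale, while its relative NDEL1 rose by 0.26. HOOK1 fell by 0.65 and DYNLT1 by 0.54.

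**Figure D5:**
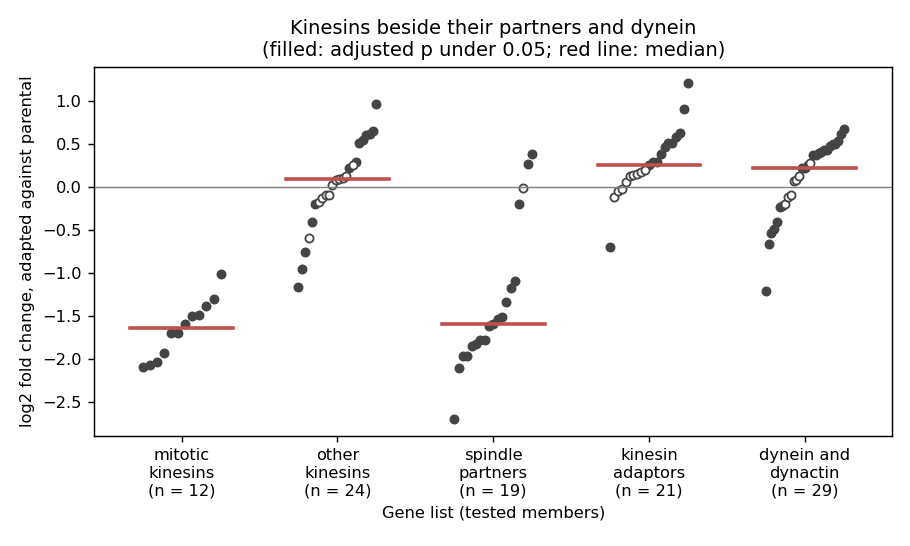
log2 fold change of adapted against parental cells (y axis) for each tested member of 5 gene lists (x axis), filled where limma's adjusted p was under 0.05, with the median of each list as a red line. The medians are -1.64 for mitotic kinesins, 0.09 for other kinesins, -1.59 for spindle partners, 0.26 for kinesin adaptors and 0.22 for dynein and dynactin.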

How the data were processed

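The table was deposited as log2 values, 1 column per sample, and the authors do not name the unit. It was taken as log2(FPKM + 1) because 2 to the power of a value, minus 1, has 6 decimals in all but 147 of 27216 rows. The submitters' processing notes list Bowtie2 2.1.0, STAR, edgeR and hg38 without roles, and the annotation is not given in the sources used here. The tool named in the study's methods needs counts, so adapted and parental samples were compared with limma 3.58.1 in R 4.3.3 (lmFit, eBayes with an intensity trend, unpaired, two-sided) on the 12656 rows with a mean of at least 1, adjusted by Benjamini-Hochberg over all of them, with a threshold of 0.05. The fit was tested on simulated data. Fold changes on this scale understate the change of low genes. The kinesins, the lists and the motifs were chosen with earlier results of these data known. The text names every kinesin and, of each partner list, up to 3 members that rose and 3 that fell most, with direct partners of kinesins, STARD9, CLASP1, CLASP2, TRAK1, TRAK2 and NDEL1 added after their values were seen. Promoter windows came from RefSeq (GRCh38.p14) and overlaps from GENCODE v29, with Python 3.11.15. The alternatives tried were another pseudocount, other filters, scalings and eBayes settings, a replicate block, and leaving out samples or rows.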

Additional observations from a re-analysis of the deposited data

How the results depend on the processing

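The 12 mitotic kinesins fell in every alternative that tested all of them, and 9 of 9 fell with a filter at a mean of at least 3. Their median log2 fold change ranged from -1.82 to -1.50 over the fits that each left out a sample. The other kinesins called lower numbered 4 to 6 and those called higher 6 to 10 over those fits, and their median ranged from 0.041 (without adapted replicate 1) to 0.11. That median was 0.060 without a filter and 0.049 after quantile normalization. With the filter at 3, which left fewer rows, 4532 of 7693 rows passed the threshold and 2 of 14 other kinesins fell. Requiring a log2 fold change of at least 1 left 1328 rows, 1 other kinesin lower and 0 higher. All rows called, 7202, ranged from 5763 to 8370 when a sample was left out, highest without adapted replicate 1. Without that sample KIFC3 (-0.0086, adjusted p = 0.894) and KLC2 (-0.046, adjusted p = 0.544), neither past the threshold in limma, changed sign. When each sample was left out in turn, KIFC3 ranged up to 0.16 and KLC2 up to 0.087.

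Samples with the same replicate number did not deviate together (r of -0.051, -0.031 and -0.020 across rows). For samples with different numbers r was -0.036 to 0.066. As each deviation was taken from the mean of only 3 samples, these values cannot settle whether the numbers pair the samples. With the replicate number as a block, 6761 rows, 12 mitotic kinesins and 4 other kinesins lower and 7 higher were called. The cause of these shifts was not tested. Unknown depth limits the genes near 0.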
